A study of Mus musculus with 12 samples.

Results

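The genes described here are 40 listed genes of the mouse lysosome, all of which had enough reads to be tested, out of 35523 genes in the files and 18028 genes tested. They were taken by name, not by a cut on measured values, but with earlier results of these data known. They comprise 7 membrane proteins, 8 proteases, 6 hydrolases of glycosaminoglycans, 8 hydrolases of glycoproteins, glycolipids and glycogen, 5 lipid hydrolases and lipid-handling proteins, 3 subunits of the vacuolar proton pump (V-ATPase), the transcription factors Tfeb and Tfe3, and Grn. RNA-seq was done on cardiac fibroblasts from adult C57BL/6J mice of both sexes, wild type by their labels. The cells were transfected with siRNA against histone H1.0 (knockdown cells) or with a scrambled siRNA (scramble cells), kept in 0.1% serum for 24 h, and then given TGF-β at 10 ng/ml or vehicle. This made 4 groups of 3 libraries each: knockdown with TGF-β, knockdown with vehicle, scramble with TGF-β and scramble with vehicle. All 12 cultures were transfected, so none shows untouched cells, and the knockdown is partial.

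Lysosomes are acidic organelles in which enzymes delivered from the Golgi break down proteins, lipids, glycogen and matrix polysaccharides taken up from outside or brought in by autophagy. Fibroblasts use them to degrade internalized collagen and proteoglycans. Many lysosome genes are controlled together by TFEB and TFE3, which bind the CLEAR element, an E-box (CACGTG) with GT before it and AC after it. Histone H1.0, encoded by H1f0, binds the nucleosome and the DNA that links nucleosomes. TGF-β turns fibroblasts into matrix-producing myofibroblasts, and the design asks how lysosome genes respond to TGF-β, to loss of H1.0, and to both.

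Promoters were looked up in RefSeq (GRCm38.p6, 250 bases before to 50 after a start site) and matched for 36 of the 40 genes. Npc1, Ctsb, Asah1 and Atp6v1h had no entry. The CLEAR element, its inner part TCACGTG and the E-box CACGTG, each contained in the longer motif, were searched on both strands. An E-box was present in 14 of the 36 genes (38.9%) and in 8.09% of 27025 genes with a promoter, or 10.7% of the 12394 of them that were tested. TCACGTG was present in 13 of 36 (36.1%), against 4.29% of all genes and 6.2% of those tested, and the full CLEAR element in 1 of 36 (2.78%), which was Cln3, against 0.37% of all genes and 0.629% of those tested. The 14 genes carried 22 E-boxes, of which 13 started within 100 bases before the start site. A match is a description of letters and not a measured binding site.

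The densest promoter was that of Lamp1, shown because 4 E-boxes lay in its last 61 bases. Glb1 is shown beside it as a promoter with a single E-box and with the widest called rise among the members with the siRNA when TGF-β was given. The lines give the 160 bases before the start site, 5′ to 3′ on the gene's strand, with each E-box in capitals. Lamp1 lies at chr8:13159001-13159160 (plus strand) and Glb1 at chr9:114400918-114401077 (plus strand).
Lamp1: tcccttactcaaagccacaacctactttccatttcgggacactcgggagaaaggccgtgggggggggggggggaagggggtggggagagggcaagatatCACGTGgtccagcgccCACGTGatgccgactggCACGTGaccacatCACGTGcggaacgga
Glb1: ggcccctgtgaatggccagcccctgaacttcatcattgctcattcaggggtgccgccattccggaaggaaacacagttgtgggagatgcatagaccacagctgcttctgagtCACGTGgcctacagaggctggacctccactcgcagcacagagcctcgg

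For members that carried the motif and responded below, 30 bases around an E-box are shown to let the flanks be compared. Capitals mark the E-box, and the T before it or the A after it completes TCACGTG on either strand. The sites were in the promoters of Sgsh (chr11:119355522-119355551, minus strand), Arsa (chr15:89477423-89477452, minus), Gaa (chr11:119267811-119267840, plus), Naglu (chr11:101070009-101070038, plus), Mcoln1 (chr8:3500462-3500491, plus), Ctsa (chr2:164833749-164833778, plus) and Cln3 (chr7:126583340-126583369, minus). The E-box began 29 bases before the start site in Sgsh, 16 in Arsa, 140 in Gaa, 73 in Naglu, 45 in Mcoln1, 12 in Ctsa and 121 in Cln3. Only the Cln3 site has the full CLEAR element.
Sgsh: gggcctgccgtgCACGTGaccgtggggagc
Arsa: tcaactcagtgtCACGTGttgtctgctcct
Gaa: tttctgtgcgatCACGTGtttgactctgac
Naglu: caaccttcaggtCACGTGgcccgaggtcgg
Mcoln1: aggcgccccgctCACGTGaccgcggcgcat
Ctsa: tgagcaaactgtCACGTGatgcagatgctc
Cln3: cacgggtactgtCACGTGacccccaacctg

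**Figure D1:**
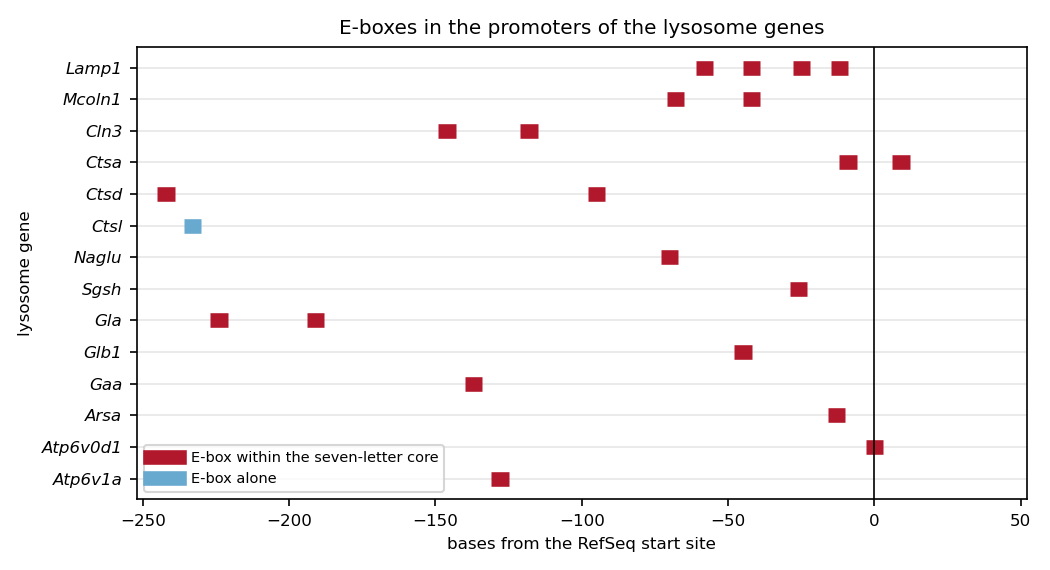
Positions of the E-boxes in the RefSeq promoters of the lysosome genes that hold at least 1. The x axis gives bases from the start site and each block is an E-box of 6 bases, red where it is part of TCACGTG and blue where it is not. Lamp1 has 4 close to its start site, and the single blue block is that of Ctsl.

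Library totals ran from 19864545 to 36296333 estimated counts. The 3 libraries of knockdown cells with TGF-β were the deepest, at 36161274 or more. H1f0 had 843, 876 and 510 normalized counts in knockdown cells with TGF-β, 980, 1075 and 600 in knockdown cells with vehicle, 2832, 2922 and 2807 in scramble cells with TGF-β and 2515, 3033 and 2648 in scramble cells with vehicle. A normalized count is a count scaled for library size by edgeR's TMM factors. The siRNA labels therefore held, with about 26.0% of the H1f0 RNA left in knockdown cells with TGF-β and 32.3% with vehicle. For the TGF-β labels, Postn rose with TGF-β by a log2 of 1.89 in knockdown and 2.22 in scramble cells. Acta2 rose by 2.49 and 1.75. The 10 fibroblast markers summed to 11200 to 12800 TPM (a transcript level scaled by length and by library) over the libraries, but single markers differed between groups. With TGF-β 4 of them fell and 3 rose in knockdown cells, and 3 fell and 1 rose in scramble cells, Pdgfra falling by a log2 of -2.01 and -1.44 and Dcn by -0.84 and -1.18. With the siRNA 4 fell and 1 rose with TGF-β, and 2 fell and 1 rose with vehicle, Thy1 falling by -2.97 and -2.18. Replicate 3 stood apart from replicates 1 and 2 in every group, and same-numbered libraries varied together. Results of the lysosome genes are therefore also given with the replicate number as a block where that changed a call. Of the fibroblast markers, the block added a fall of Lum with TGF-β in both cell groups. In scramble cells it also added a fall of Tcf21 and a rise of Pdgfrb with TGF-β. With the siRNA it added a fall of Ddr2 at both treatments. It further added a fall of Pdgfra and a rise of Col1a2 when TGF-β was given, and falls of Lum and Tcf21 with vehicle. The study's methods describe replicates as biological, taken from different animals or isolations, while the labels give only their numbers. The p-values measure the spread between these libraries.

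The lysosome genes differed widely in level. In TPM, Ctsd (cathepsin D, an aspartic protease) led with a mean of 2170 over the 12 libraries and held 24.3% of the summed TPM of the 40 genes. Psap (prosaposin, the precursor of the saposins that help degrade sphingolipids) followed at 762, Ctsb (cathepsin B, a cysteine protease) at 715, Cd63 (a tetraspanin of late endosomes and lysosomes) at 700 and Lamp1 at 628. The ranges of those 4 over the libraries overlapped, from 530 to 984 TPM for Psap and from 461 to 897 TPM for Lamp1, so their order is not fixed. The first 10 genes held 76.0% of the sum. At the low end were Tfeb at 12, Cln3 at 11.5 and Gla (alpha-galactosidase A) at 0.469 TPM.

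Gla was close to absent, with 0 to 34.7 normalized counts and a count of 0 in 5 libraries, so no change is read from it. For some genes much of the TPM was assigned to transcripts without a coding frame. Coding transcripts held 33.1% of the TPM of Asah1, 41.2% of Arsa, 42.0% of Tpp1, 44.9% of Cln3 and 45.0% of Ctsb. Summed over the 40 genes, the level was 8090 to 8610 TPM in knockdown cells with TGF-β, 10100 to 11000 in knockdown cells with vehicle, 7690 to 8100 in scramble cells with TGF-β and 8890 to 9400 in scramble cells with vehicle. The TGF-β libraries were below the vehicle libraries within each siRNA.

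**Figure D2:**
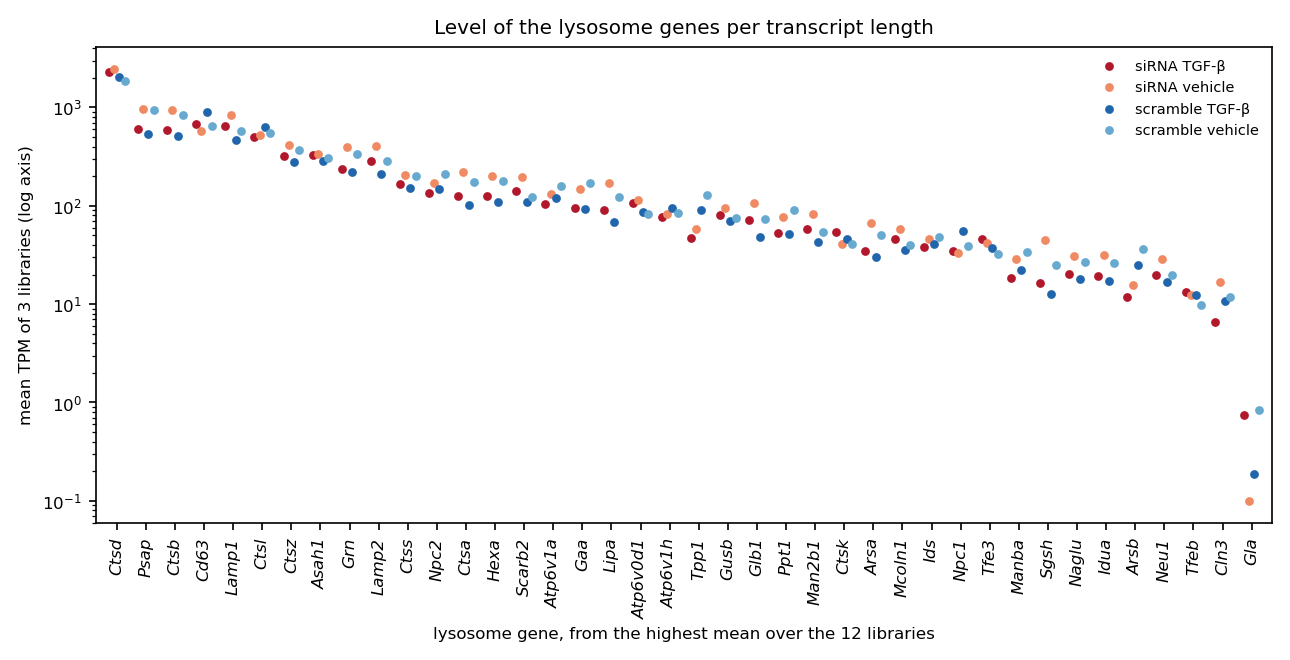
Mean TPM of 3 libraries in each of the 4 groups for the 40 lysosome genes, on a log axis, ordered by the mean over the 12 libraries. Ctsd is highest at 2170 TPM and Gla lowest at 0.469 TPM, and most genes sit lower with TGF-β than with vehicle.

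TGF-β was accompanied by lower RNA of many of the lysosome genes, whether or not H1.0 was depleted. In knockdown cells 18 of the 40 fell and 1 rose with TGF-β, where 6.6% of all genes tested fell and 9.14% rose (edgeR's quasi-likelihood test, adjusted p under 0.01). In scramble cells 20 fell and 2 rose, where 7.94% of all genes fell and 10.5% rose. The members' median log2 fold change was -0.30 in knockdown cells and -0.36 in scramble cells, against -0.01 over all genes in both. These comparisons share no library, but the same fit estimated the spread for both. The 15 genes that fell in both were Lamp2, Mcoln1, Ctsa, Ctsb, Naglu, Sgsh, Idua, Glb1, Hexa, Gaa, Arsa, Lipa, Psap, Ppt1 and Grn, and 37 of the 40 log2 fold changes had the same sign in both. How many of all genes fell in both, or kept their sign, was not counted, so neither number is read as particular to lysosome genes. With the replicate block, 21 fell and 2 rose in knockdown cells (12.6% and 14.2% of all genes), and 23 fell and 3 rose in scramble cells (13.0% and 15.4%). The block added Ctsz, Npc2 and Atp6v1a to those that fell and Cd63 to those that rose in knockdown cells, and Man2b1, Manba and Atp6v1a to those that fell and Ctsl to those that rose in scramble cells.

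Macrophage markers moved in the same direction. Of 20 such markers, all detected, 7 fell with TGF-β in knockdown cells, and 5 fell and 1 rose in scramble cells. Their summed level was 909 to 1370 TPM in knockdown cells with TGF-β, 1710 to 1830 in knockdown cells with vehicle, 1380 to 1450 in scramble cells with TGF-β and 1870 to 2120 in scramble cells with vehicle. Among the defining ones, Ptprc fell (log2 fold change -0.60 in knockdown cells, -0.62 in scramble cells), as did Cd68 (-0.96 and -0.83), a membrane glycoprotein of macrophage lysosomes. For Csf1r the values were 0.16 and 0.18, and for Adgre1 -0.40, called with the block and not without it (adjusted p = 0.0093), and -0.04. With the block 11 markers fell and 1 rose in knockdown cells, and 8 fell and 1 rose in scramble cells. Mean sums of some other marker lists were lower with TGF-β than with vehicle too. They were 39.9 and 49.1 TPM in knockdown and 48.2 and 66.2 TPM in scramble cells for 8 endothelial markers. For cardiomyocyte markers they were 15.5 and 22.8 TPM, and 146 and 189 TPM. Those of pericytes and smooth muscle were higher with TGF-β (18.2 and 17.5 TPM, 53.4 and 46.4 TPM). The part of all these markers in the fall of the lysosome genes was not tested. In bulk RNA, fewer cells of a type and less RNA per cell cannot be told apart.

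**Figure D3:**
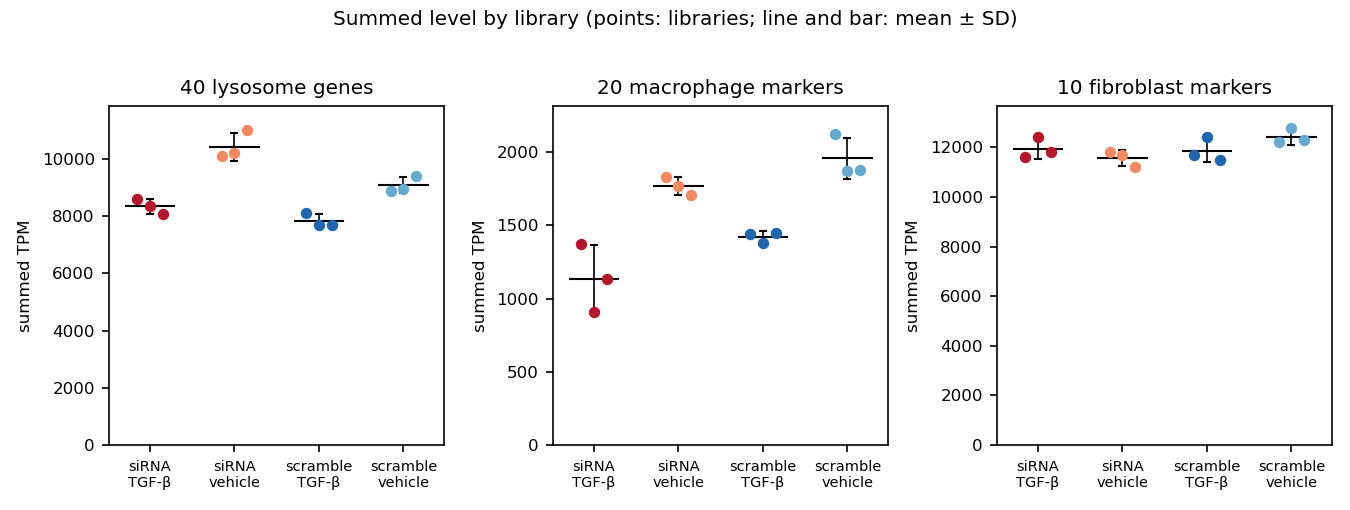
Summed TPM by library of the 40 lysosome genes, 20 macrophage markers and 10 fibroblast markers; points are libraries and the line with bar is the mean ± SD (n = 3). Lysosome genes and macrophage markers are both lower with TGF-β, and the knockdown libraries with vehicle hold the highest lysosome sums, at 10100 to 11000 TPM.

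The H1.0 siRNA went with higher RNA of a smaller number of lysosome genes. With TGF-β, 11 of the 40 rose and 3 fell in knockdown relative to scramble cells, where 13.0% of all genes rose and 11.3% fell. With vehicle, 15 rose and 2 fell, where 13.4% of all genes rose and 11.2% fell. The median log2 fold change of the members was 0.25 with TGF-β and 0.23 with vehicle, against 0.04 and 0.00 over all genes. These comparisons share no library either, but again share the fit. The 11 genes that rose in both were Lamp1, Lamp2, Mcoln1, Ctsa, Gusb, Glb1, Neu1, Man2b1, Lipa, Atp6v0d1 and Tfe3, and Tpp1 and Arsb fell in both. How many of all genes rose or fell in both was not counted. With the replicate block, 18 rose and 3 fell with TGF-β (17.6% and 16.0% of all genes), and 18 rose and 3 fell with vehicle (17.4% and 16.2%). It added Ctsb, Ctsk, Ctss, Ctsz, Hexa, Arsa and Psap to those that rose with TGF-β, and with vehicle Scarb2, Ctsz and Arsa to those that rose and Npc2 to those that fell. With an offset for transcript length, 7 rose and 4 fell with TGF-β, where 1447 and 1674 of the 18028 genes tested did. Of the 20 macrophage markers, 3 fell with the siRNA when TGF-β was given (3 rose and 5 fell with the block), and with vehicle 2 rose and 2 fell (4 and 3 with the block). Summed markers of some other cells were also lower in knockdown cells. Those of Schwann cells were not (mean 0.79 TPM in knockdown and 0.548 TPM in scramble cells with TGF-β, 1.21 and 1.03 TPM with vehicle). Lymphocyte markers averaged 0.262 and 0.26 TPM with TGF-β, and 0.321 and 0.433 TPM with vehicle. The 8 endothelial markers averaged 39.9 and 48.2 TPM with TGF-β, and 49.1 and 66.2 TPM with vehicle. Among them only Tek was called (log2 -1.19 and -2.00), while Cdh5, Tie1, Emcn and Egfl7 had positive values at both treatments. The 8 cardiomyocyte markers summed to 14.6 to 17.2 TPM in knockdown and 132 to 164 TPM in scramble cells with TGF-β. With vehicle they summed to 21.5 to 24.4 TPM in knockdown and 177 to 197 TPM in scramble cells. Among them only Tnnt2 (log2 -3.57 and -3.30) and Ryr2 (-2.99 and -2.35) were called. Tnni3 (0.53 and 0.22) and Myl2 (0.12 and 0.67) had positive values. The lower sum thus does not show lower RNA of all 8. The 6 pericyte and smooth muscle markers summed to 18.2 ± 7.36 TPM in knockdown and 53.4 ± 21.2 TPM in scramble cells with TGF-β, and to 17.5 ± 5.77 TPM in knockdown and 46.4 ± 19.3 TPM in scramble cells with vehicle (SD, n = 3 each). None of the 6 was called with the siRNA, and with the block 4 of the 6 fell with TGF-β and 5 with vehicle. The part of these markers in the siRNA results was not tested.

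**Figure D4:**
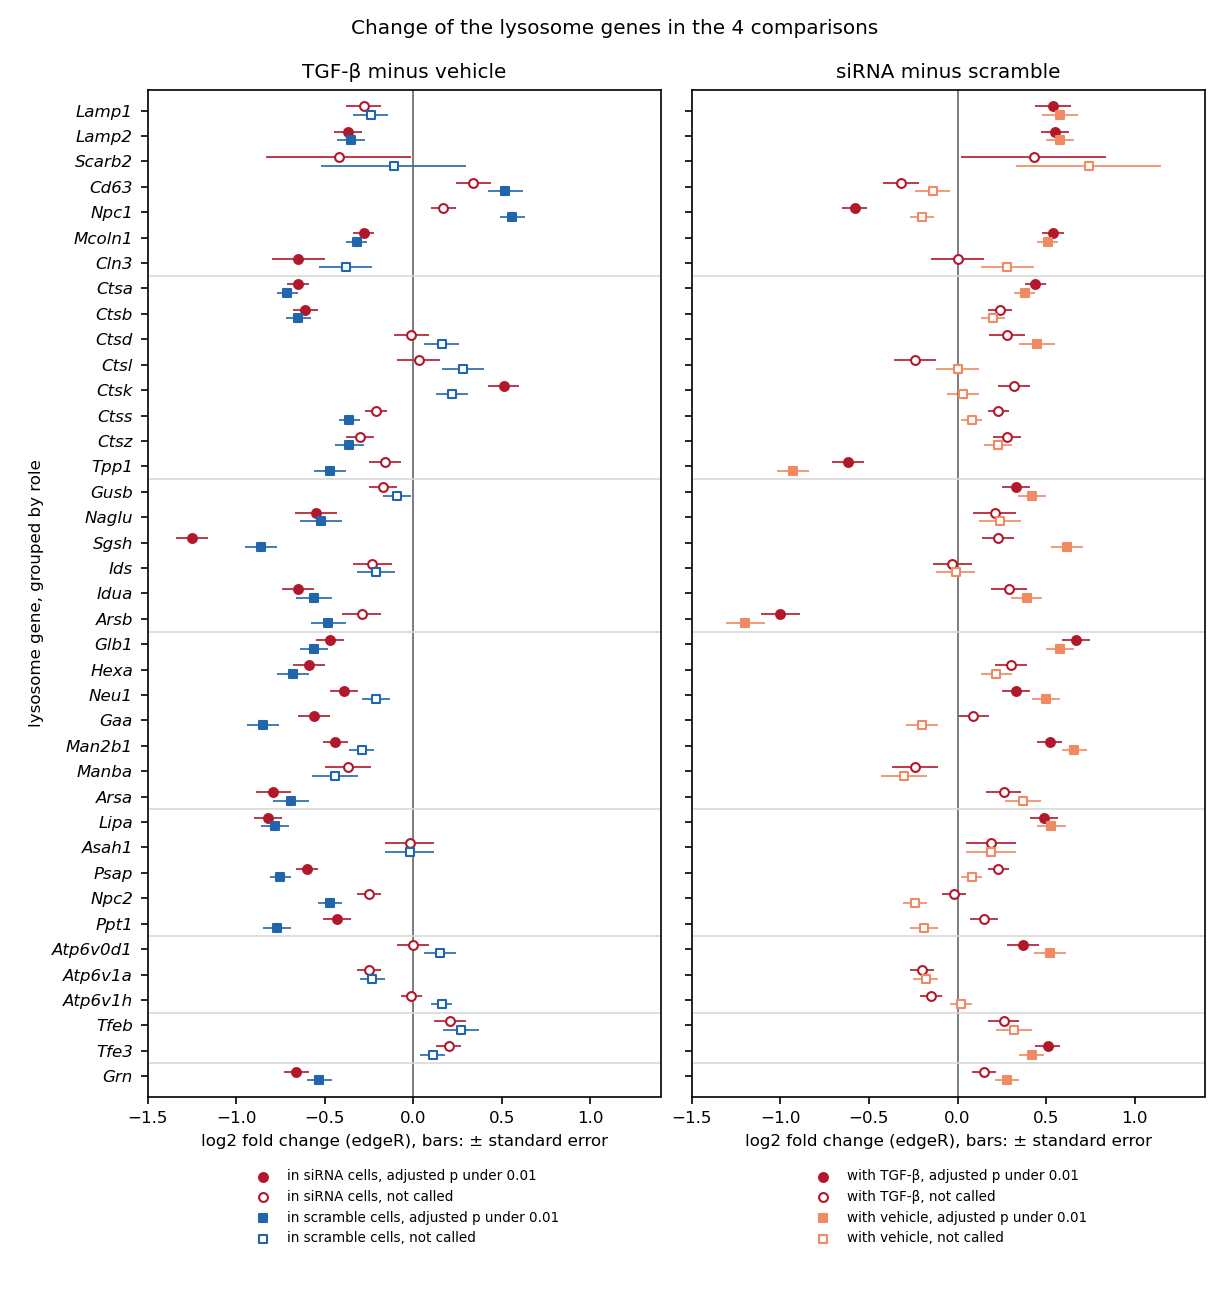
Log2 fold changes (edgeR) with standard errors of the lysosome genes for TGF-β minus vehicle, left, and knockdown (siRNA) minus scramble, right; filled symbols passed an adjusted p of 0.01, and lines separate the roles. Gla is left out because its standard errors exceed 1.5. Most points lie left of 0 for TGF-β and right of 0 for the siRNA, with Arsb and Tpp1 far to the left in the siRNA panel.

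Among the membrane proteins, Lamp1 and Lamp2, the heavily glycosylated proteins that coat the inner face of the lysosomal membrane, were higher in knockdown cells. Lamp1 had 20532, 19686 and 20315 normalized counts in knockdown cells with TGF-β, 23173, 22665 and 27532 in knockdown cells with vehicle, 14436, 13139 and 13949 in scramble cells with TGF-β and 14816, 15630 and 18502 in scramble cells with vehicle. Every knockdown library was above every scramble library. The log2 fold change of knockdown over scramble was 0.54 ± 0.10 (SE) with TGF-β (adjusted p = 0.0012) and 0.58 ± 0.10 with vehicle (adjusted p = 0.00079). For TGF-β the log2 values of Lamp1 were -0.28 in knockdown and -0.24 in scramble cells, neither called.

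Lamp2 had 12068, 11705 and 10335 normalized counts in knockdown cells with TGF-β, 14177, 14616 and 15364 in knockdown cells with vehicle, 8176, 7911 and 7184 in scramble cells with TGF-β and 9247, 10207 and 10188 in scramble cells with vehicle. No pair of groups in the 4 comparisons overlapped. It rose with the siRNA by a log2 of 0.55 ± 0.08 with TGF-β (adjusted p = 0.00028) and 0.58 ± 0.08 with vehicle (adjusted p = 0.00022). It fell with TGF-β, at a log2 of -0.37 ± 0.08 in knockdown cells (adjusted p = 0.0053) and -0.35 ± 0.08 in scramble cells (adjusted p = 0.0069). The fall in knockdown cells lost its call without knockdown TGF-β 2 or 3 or knockdown vehicle 1, 2 or 3 (adjusted p up to 0.021). That in scramble cells lost it without knockdown TGF-β 2, scramble TGF-β 1, 2 or 3, or scramble vehicle 2 or 3 (adjusted p up to 0.032). Coding transcripts held 98.9% of the Lamp2 TPM.

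Mcoln1, the TRPML1 calcium channel that signals from the lysosome to TFEB, had 1025, 1121 and 1061 normalized counts in knockdown cells with TGF-β, 1286, 1242 and 1377 in knockdown cells with vehicle, 754, 721 and 727 in scramble cells with TGF-β and 917, 869 and 956 in scramble cells with vehicle. Its order of groups was that of Lamp2. The log2 fold change of knockdown over scramble was 0.54 ± 0.06 with TGF-β (adjusted p = 7e-05) and 0.51 ± 0.06 with vehicle (adjusted p = 0.00011). With TGF-β it fell, at a log2 of -0.28 ± 0.06 in knockdown cells (adjusted p = 0.0067) and -0.32 ± 0.06 in scramble cells (adjusted p = 0.0038). The call in knockdown cells was lost without knockdown TGF-β 1 or 3, any knockdown vehicle library, scramble TGF-β 1 or 2 or scramble vehicle 1 (adjusted p up to 0.028). That in scramble cells was lost without scramble TGF-β 2 or 3 or scramble vehicle 1 or 3 (adjusted p up to 0.016). Both were lost with an offset for transcript length (adjusted p = 0.047 in knockdown and 0.35 in scramble cells).

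Npc1 and Cd63 stood apart from the other membrane proteins, since both rose with TGF-β in scramble cells. Npc1, the membrane protein that passes cholesterol out of the lysosome, had 2414, 2524 and 2231 normalized counts in knockdown cells with TGF-β, 1992, 2097 and 2269 in knockdown cells with vehicle, 3790, 3586 and 3374 in scramble cells with TGF-β and 2430, 2430 and 2436 in scramble cells with vehicle. The scramble TGF-β libraries were above the other 9. Npc1 rose with TGF-β in scramble cells (log2 0.56 ± 0.07, adjusted p = 0.00022) and fell with the siRNA when TGF-β was given (log2 -0.58 ± 0.07, adjusted p = 6.6e-05), the scramble TGF-β libraries entering both. In knockdown cells the TGF-β value was 0.17 ± 0.07 (adjusted p = 0.084). With vehicle the siRNA value was -0.20 ± 0.07 (adjusted p = 0.042), not called, and the libraries of those groups did not overlap.

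Cd63 had 8887, 9651 and 9012 normalized counts in knockdown cells with TGF-β, 6808, 6761 and 8130 in knockdown cells with vehicle, 12165, 11231 and 11070 in scramble cells with TGF-β and 6987, 8195 and 8803 in scramble cells with vehicle. It rose with TGF-β in scramble cells (log2 0.52 ± 0.10, adjusted p = 0.0023), a call that was lost without scramble TGF-β 1 (adjusted p = 0.010). In knockdown cells the log2 was 0.34 ± 0.10, called with the block and not without it (adjusted p = 0.022, and 0.0097 with the block). Of the remaining membrane proteins, Cln3, whose human gene is mutated in a juvenile lysosomal storage disease, fell with TGF-β in knockdown cells (log2 -0.65 ± 0.15, adjusted p = 0.007), lost without knockdown TGF-β 1 or 3, any knockdown vehicle library, scramble TGF-β 1 or 2 or scramble vehicle 2 (adjusted p up to 0.027). Scarb2, the receptor that carries glucocerebrosidase to the lysosome, was 1.56 to 2.51 times higher in replicate 3 than in the mean of replicates 1 and 2 of its group. Its knockdown value with vehicle, log2 0.74 ± 0.41, was called with the block and not without it (log2 0.69, adjusted p = 0.00086).

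**Figure D5:**
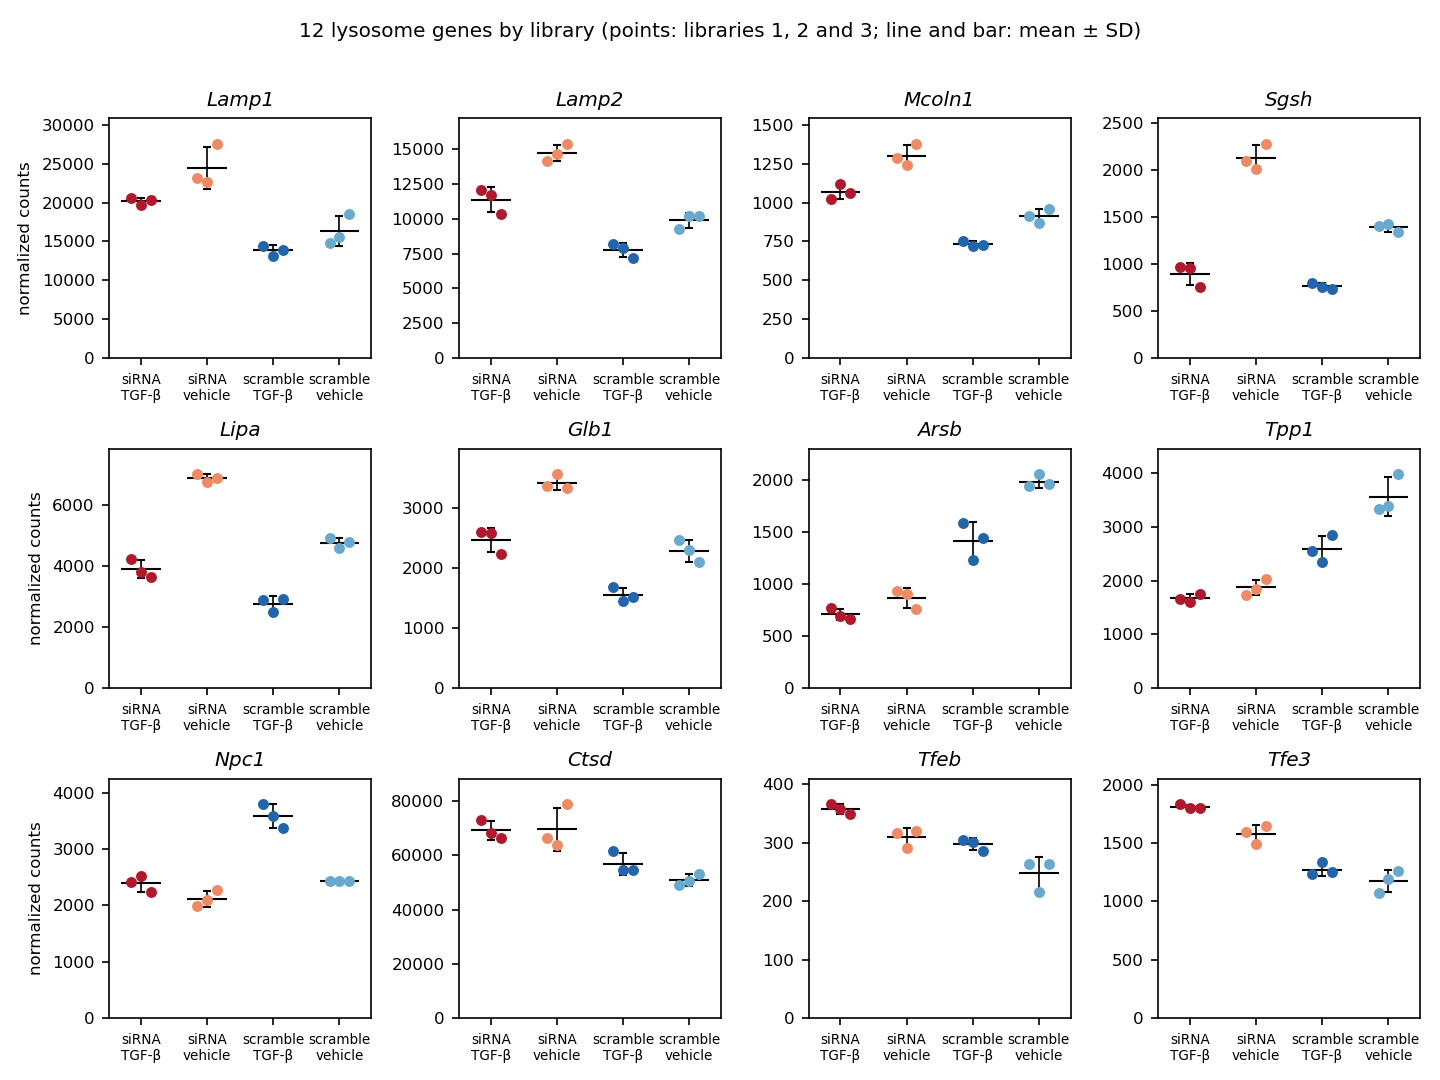
Normalized counts by library for 12 lysosome genes, with the mean ± SD of each group (n = 3). Lamp1, Lamp2, Mcoln1, Glb1 and Lipa are higher in knockdown (siRNA) than in scramble cells at either treatment, Arsb and Tpp1 are lower, and Sgsh differs most between TGF-β and vehicle.

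Among the proteases, cathepsins A and B fell with TGF-β while the most abundant one, cathepsin D, did not pass. Ctsb had 21576, 20807 and 21011 normalized counts in knockdown cells with TGF-β, 30437, 31998 and 34484 in knockdown cells with vehicle, 18092, 17906 and 17745 in scramble cells with TGF-β and 28771, 28291 and 27129 in scramble cells with vehicle. Every TGF-β library was below every vehicle library. The fall was a log2 of -0.61 ± 0.07 in knockdown cells (adjusted p = 8.9e-05) and -0.65 ± 0.07 in scramble cells (adjusted p = 8.3e-05). Its coding transcript alone averaged 256 ± 5.12 TPM in knockdown cells with TGF-β and 421 ± 14.7 with vehicle, and 232 ± 9.14 TPM in scramble cells with TGF-β and 377 ± 16.8 with vehicle (SD, n = 3 each). Knockdown over scramble was 0.24 with TGF-β, called with the block and not without it (adjusted p = 0.014, and 0.0082 with the block), and 0.20 with vehicle, not called.

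Ctsd had 72921, 68033 and 66312 normalized counts in knockdown cells with TGF-β, 66223, 63610 and 78666 in knockdown cells with vehicle, 61539, 54612 and 54394 in scramble cells with TGF-β and 48978, 50366 and 53099 in scramble cells with vehicle. It rose with the siRNA in vehicle-treated cells (log2 0.45 ± 0.10, adjusted p = 0.0033), a call lost without scramble vehicle 1 (adjusted p = 0.015) or 2 (0.014). With TGF-β the siRNA value was 0.28 ± 0.10 (adjusted p = 0.04). For TGF-β its values were -0.01 in knockdown and 0.16 in scramble cells, neither called. Ctsd made up 24.5% to 26.7% of the members' summed TPM in scramble cells with TGF-β against 20.6% to 20.7% with vehicle. Ctsa, a carboxypeptidase that also protects beta-galactosidase and neuraminidase, fell with TGF-β (log2 -0.65 in knockdown and -0.71 in scramble cells) and rose with the siRNA (0.44 with TGF-β, 0.38 with vehicle), with adjusted p from 3.2e-05 to 0.00039.

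Tpp1 (chr7:105744811-105752235, minus strand, GRCm38) encodes a tripeptidyl peptidase. Tpp1 had 1665, 1606 and 1753 normalized counts in knockdown cells with TGF-β, 1740, 1847 and 2028 in knockdown cells with vehicle, 2549, 2344 and 2846 in scramble cells with TGF-β and 3328, 3387 and 3978 in scramble cells with vehicle. All 6 knockdown libraries were below all 6 scramble libraries. Tpp1 fell with the siRNA by a log2 of -0.93 ± 0.09 with vehicle (adjusted p = 2.6e-05) and -0.62 ± 0.09 with TGF-β (adjusted p = 0.00035). It also fell with TGF-β in scramble cells (log2 -0.47 ± 0.09, adjusted p = 0.0032), which was lost without scramble TGF-β 1 (adjusted p = 0.013) or 2 (0.015) and with an offset for transcript length (0.033).

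Ctsk, cathepsin K, a collagen-degrading protease, was the member called higher with TGF-β in knockdown cells. It had 1112, 1129 and 1086 normalized counts in knockdown cells with TGF-β, 736, 775 and 828 in knockdown cells with vehicle, 917, 882 and 866 in scramble cells with TGF-β and 647, 845 and 796 in scramble cells with vehicle. The log2 was 0.51 ± 0.09 in knockdown cells (adjusted p = 0.0019) and 0.22 ± 0.09 in scramble cells (adjusted p = 0.087). The call in knockdown cells was lost without knockdown vehicle 1 (adjusted p = 0.010). Ctss and Ctsz, cathepsins S and Z, fell with TGF-β in scramble cells, each with a log2 of -0.36 (adjusted p = 0.001 and 0.0083), and the call for Ctsz was lost without any scramble library, knockdown TGF-β 1 or knockdown vehicle 1 (adjusted p up to 0.034). Ctsl, cathepsin L, was called in none of the comparisons without the block.

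The glycosaminoglycan hydrolases held the widest called falls of all members, Sgsh with TGF-β in both cell groups and Arsb with the siRNA at both treatments. Sgsh (chr11:119343425-119355536, minus strand, GRCm38) encodes sulfamidase, which removes sulfate from heparan sulfate. Sgsh had 968, 956 and 760 normalized counts in knockdown cells with TGF-β, 2095, 2011 and 2279 in knockdown cells with vehicle, 803, 757 and 734 in scramble cells with TGF-β and 1406, 1425 and 1339 in scramble cells with vehicle. It fell with TGF-β by a log2 of -1.25 ± 0.09 in knockdown cells (adjusted p = 9.9e-06) and -0.86 ± 0.09 in scramble cells (adjusted p = 0.00011). With vehicle it rose with the siRNA (log2 0.62 ± 0.09, adjusted p = 0.00033), and with TGF-β the value was 0.23 ± 0.09 (adjusted p = 0.079). Naglu and Idua, enzymes that act on the same polysaccharide, also fell with TGF-β. The log2 of Naglu was -0.55 in knockdown and -0.52 in scramble cells, and that of Idua -0.65 in knockdown and -0.56 in scramble cells. The Naglu call in knockdown cells was lost without knockdown TGF-β 1 or 3, knockdown vehicle 1 or 2, scramble TGF-β 2 or scramble vehicle 2 (adjusted p up to 0.025). That in scramble cells was lost without knockdown TGF-β 1, knockdown vehicle 2, any scramble TGF-β library or scramble vehicle 1 or 2 (adjusted p up to 0.036). Both were also lost with an offset for transcript length (adjusted p = 0.015).

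Arsb (chr13:93771630-93943016, plus strand, GRCm38) encodes arylsulfatase B, which acts on dermatan and chondroitin sulfate. Arsb had 772, 691 and 662 normalized counts in knockdown cells with TGF-β, 935, 906 and 761 in knockdown cells with vehicle, 1585, 1229 and 1442 in scramble cells with TGF-β and 1943, 2056 and 1959 in scramble cells with vehicle. The knockdown libraries were again below all scramble libraries. Arsb fell with the siRNA by a log2 of -1.20 ± 0.11 with vehicle (adjusted p = 1.1e-05) and -1.0 ± 0.11 with TGF-β (adjusted p = 3e-05), the widest called change of any member in those comparisons. With TGF-β it fell in scramble cells (log2 -0.48 ± 0.10, adjusted p = 0.0048), lost without any scramble vehicle library or scramble TGF-β 2 or 3 (adjusted p up to 0.021). Gusb, beta-glucuronidase, rose with the siRNA (log2 0.33 with TGF-β, adjusted p = 0.0087, and 0.42 with vehicle, adjusted p = 0.0024). The call with TGF-β was lost without knockdown TGF-β 1 or 3, knockdown vehicle 1, scramble TGF-β 2 or 3 or scramble vehicle 1 or 2 (adjusted p up to 0.04), and that with vehicle without knockdown vehicle 3 or scramble vehicle 1 or 2 (up to 0.013). Idua rose with vehicle (log2 0.39, adjusted p = 0.0069), lost without knockdown TGF-β 1, knockdown vehicle 2 or 3, scramble TGF-β 2 or any scramble vehicle library (adjusted p up to 0.029) and with the length offset (0.09). Ids, iduronate sulfatase, was not called in any comparison.

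Of the 8 hydrolases of glycoproteins, glycolipids and glycogen, 6 fell with TGF-β in knockdown cells and 4 in scramble cells. Of all genes, 6.6% and 7.94% fell in those comparisons. The 8 include Gla, from which no change was read. Gaa, which degrades glycogen in the lysosome, had 4635, 4779 and 4371 normalized counts in knockdown cells with TGF-β, 6274, 7093 and 6903 in knockdown cells with vehicle, 4855, 4152 and 3945 in scramble cells with TGF-β and 8349, 7869 and 7059 in scramble cells with vehicle. TGF-β and vehicle libraries did not overlap. The log2 was -0.56 ± 0.09 in knockdown cells (adjusted p = 0.0012) and -0.85 ± 0.09 in scramble cells (adjusted p = 0.00012), and neither siRNA comparison of Gaa was called.

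Arsa, arylsulfatase A, which degrades sulfatides, had 1529, 1456 and 1200 normalized counts in knockdown cells with TGF-β, 2521, 2437 and 2303 in knockdown cells with vehicle, 1288, 1129 and 1066 in scramble cells with TGF-β and 1978, 1909 and 1723 in scramble cells with vehicle. It fell with TGF-β by a log2 of -0.79 ± 0.10 in knockdown cells (adjusted p = 0.00024) and -0.69 ± 0.10 in scramble cells (adjusted p = 0.00057). The rise with the siRNA, 0.26 with TGF-β and 0.37 with vehicle, was not called by edgeR without the block (adjusted p = 0.061 and 0.012) and was called with it (0.0032 and 0.00026). Hexa, a subunit of the hexosaminidases that cleave gangliosides, fell with TGF-β at a log2 of -0.59 in knockdown cells (adjusted p = 0.00065) and -0.68 in scramble cells (adjusted p = 0.00031).

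Glb1, beta-galactosidase, combined both responses. It had 2593, 2578 and 2235 normalized counts in knockdown cells with TGF-β, 3361, 3561 and 3330 in knockdown cells with vehicle, 1680, 1457 and 1521 in scramble cells with TGF-β and 2459, 2305 and 2094 in scramble cells with vehicle. Knockdown over scramble was a log2 of 0.67 ± 0.08 with TGF-β (adjusted p = 9.8e-05) and 0.58 ± 0.08 with vehicle (adjusted p = 0.00026). It fell with TGF-β by a log2 of -0.47 ± 0.08 in knockdown cells (adjusted p = 0.0018) and -0.56 ± 0.08 in scramble cells (adjusted p = 0.00063). The knockdown TGF-β and scramble vehicle libraries overlapped, although these groups were not tested against each other.

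Man2b1, the lysosomal alpha-mannosidase, had 3360, 3264 and 2851 normalized counts in knockdown cells with TGF-β, 4345, 4348 and 4132 in knockdown cells with vehicle, 2324, 2115 and 2164 in scramble cells with TGF-β and 2845, 2689 and 2562 in scramble cells with vehicle. Man2b1 rose with the siRNA by a log2 of 0.66 ± 0.07 with vehicle (adjusted p = 4.5e-05) and 0.52 ± 0.07 with TGF-β (adjusted p = 0.00022), and fell with TGF-β in knockdown cells (log2 -0.44 ± 0.07, adjusted p = 0.0013). In scramble cells the TGF-β value was -0.29 ± 0.07, called with the block and not without it (adjusted p = 0.0013). Neu1, a neuraminidase, rose with the siRNA (log2 0.33 with TGF-β and 0.50 with vehicle) and fell with TGF-β in knockdown cells (log2 -0.39, adjusted p = 0.0034). The rise with TGF-β lost its call without knockdown TGF-β 1 or 3, knockdown vehicle 2, any scramble TGF-β library or scramble vehicle 2 (adjusted p up to 0.032), and the fall lost it without knockdown TGF-β 1 or 2 or knockdown vehicle 2 or 3 (up to 0.017). Manba, a beta-mannosidase, was called in no comparison by edgeR without the block, and with it fell with TGF-β in scramble cells.

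Of the 5 lipid-handling genes, 3 fell with TGF-β in knockdown cells and 4 in scramble cells, where 6.6% and 7.94% of all genes fell. The exception in both was Asah1, acid ceramidase, whose log2 was -0.02 in either. Lipa, the acid lipase that frees cholesterol from its esters, had 4215, 3803 and 3639 normalized counts in knockdown cells with TGF-β, 7000, 6750 and 6877 in knockdown cells with vehicle, 2900, 2496 and 2908 in scramble cells with TGF-β and 4904, 4574 and 4791 in scramble cells with vehicle. All 4 groups were separate. Lipa fell with TGF-β by a log2 of -0.82 ± 0.08 in knockdown cells (adjusted p = 3.6e-05) and -0.78 ± 0.08 in scramble cells (adjusted p = 7e-05). Lipa rose with the siRNA by 0.49 ± 0.08 with TGF-β (adjusted p = 0.00043) and 0.53 ± 0.08 with vehicle (adjusted p = 0.00024).

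Psap fell with TGF-β by a log2 of -0.60 ± 0.06 in knockdown cells (adjusted p = 7.6e-05) and -0.75 ± 0.06 in scramble cells (adjusted p = 3.9e-05). Ppt1, which removes fatty acids from proteins, fell by -0.43 ± 0.08 in knockdown cells (adjusted p = 0.0018) and -0.77 ± 0.08 in scramble cells (adjusted p = 7.6e-05). Npc2, the soluble partner of Npc1 in cholesterol export, fell in scramble cells (log2 -0.47 ± 0.07, adjusted p = 0.00071), with a value of -0.25 in knockdown cells that was called with the block and not without it (adjusted p = 0.0037). Npc2 thus fell in the cells in which Npc1 rose. With the siRNA none of Psap, Ppt1 and Npc2 was called by edgeR without the block, while DESeq2 called Psap with TGF-β (adjusted p = 1.5e-05) and Npc2 with vehicle (adjusted p = 0.0012). With the block Psap rose with TGF-β (log2 0.23, adjusted p = 0.0067) and Npc2 fell with vehicle (log2 -0.24, adjusted p = 0.0036).

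Of the proton pump subunits, Atp6v0d1 had a log2 of 0.00 for TGF-β in knockdown cells and 0.15 in scramble cells, neither called. It rose with the siRNA by a log2 of 0.37 ± 0.09 with TGF-β (adjusted p = 0.0088) and 0.52 ± 0.09 with vehicle (adjusted p = 0.0013), the call with TGF-β being lost without any knockdown TGF-β library, knockdown vehicle 1, any scramble TGF-β library or scramble vehicle 2 (adjusted p up to 0.038). Atp6v1a was lower with TGF-β at a log2 of -0.25 in knockdown and -0.23 in scramble cells, called with the block and not without it (adjusted p = 0.003 and 0.0049). Atp6v1h was not called in any comparison.

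Of the 2 transcription factors, Tfe3 was called with the siRNA and Tfeb was not, although their log2 values were positive in every pairwise comparison. They were not tested against each other. Tfe3 had 1830, 1802 and 1801 normalized counts in knockdown cells with TGF-β, 1592, 1489 and 1645 in knockdown cells with vehicle, 1231, 1335 and 1251 in scramble cells with TGF-β and 1075, 1194 and 1263 in scramble cells with vehicle. It rose with the siRNA by a log2 of 0.51 ± 0.07 with TGF-β (adjusted p = 0.00017) and 0.42 ± 0.07 with vehicle (adjusted p = 0.00064). Both calls were lost with an offset for transcript length (adjusted p = 0.028 and 0.016). Tfeb had 365, 357 and 349 normalized counts in knockdown cells with TGF-β, 317, 290 and 319 in knockdown cells with vehicle, 305, 301 and 286 in scramble cells with TGF-β and 264, 215 and 263 in scramble cells with vehicle. The groups did not overlap in any of the 4 comparisons, with log2 values of 0.21 and 0.27 for TGF-β in knockdown and scramble cells and 0.26 and 0.32 for the siRNA with TGF-β and with vehicle, but none was called (adjusted p from 0.021 to 0.13). Neither factor was lower with TGF-β. These are RNA levels, and the activity of TFEB and TFE3 is set largely by their phosphorylation and entry into the nucleus, which was not measured.

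Grn, progranulin, a secreted glycoprotein that is cleaved in lysosomes, had 7770, 6922 and 7532 normalized counts in knockdown cells with TGF-β, 11635, 11592 and 11930 in knockdown cells with vehicle, 7137, 6137 and 6712 in scramble cells with TGF-β and 10132, 9632 and 9096 in scramble cells with vehicle. It fell with TGF-β by a log2 of -0.66 ± 0.07 in knockdown cells (adjusted p = 0.00011) and -0.53 ± 0.07 in scramble cells (adjusted p = 0.00042). The rise with the siRNA in vehicle-treated cells (log2 0.28 ± 0.07, adjusted p = 0.01) sat just under the threshold and was lost in 11 of 12 fits without a library, all but that without scramble TGF-β 2 (adjusted p up to 0.036).

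The response to TGF-β was not shown to differ between knockdown and scramble cells for any lysosome gene. The interaction, which subtracts the TGF-β response of scramble cells from that of knockdown cells, was called for 0 of the 40 genes by edgeR, where 0.0444% of all genes were. At an unadjusted p under 0.05 there were 6 (Npc1, Ctsk, Tpp1, Sgsh, Gaa and Ppt1), or 15% of the members beside 11.9% of all genes. limma-voom, which called 0.0222% of all genes, and the edgeR fit with the block, which called 0.655%, called 0 members as well. DESeq2 called 1, Npc1 (log2 -0.40, adjusted p = 0.0045), where it called 1.33% of all genes. In edgeR Npc1 had -0.39 ± 0.10 (adjusted p = 0.12).

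The calls were also counted by whether TCACGTG was in the promoter. With TGF-β in knockdown cells 8 of the 13 with it and 9 of the 23 without it fell, and in scramble cells 7 of 13 and 12 of 23 fell. With the siRNA 5 of 13 and 6 of 23 rose with TGF-β, and 7 of 13 and 8 of 23 rose with vehicle. Arsb and Tpp1, which fell with the siRNA at both treatments, had no E-box in the 300 bases, and neither had Lamp2, Lipa or Tfe3, which rose. Npc1 had no matched promoter. It was called lower with the siRNA when TGF-β was given, and had a log2 of -0.20 with vehicle, not called. These counts were not tested.

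A further 119 genes of lysosomal function and autophagy were looked at list by list. With TGF-β 24 of them fell and 4 rose in knockdown cells, where 6.6% of all genes fell and 9.14% rose, and 32 fell and 6 rose in scramble cells, where 7.94% fell and 10.5% rose. Their median log2 values were -0.14 and -0.16. With the siRNA 38 rose and 8 fell with TGF-β, where 13.0% of all genes rose and 11.3% fell, and 37 rose and 9 fell with vehicle, where 13.4% rose and 11.2% fell. The medians were 0.21 and 0.19. With the block, 37 fell and 10 rose with TGF-β in knockdown cells, where 12.6% of all genes fell and 14.2% rose. In scramble cells 13 instead of 6 rose, where 15.4% of all genes did. With the siRNA 14 fell at each treatment, where 16.0% of all genes fell with TGF-β and 16.2% with vehicle. Of these block counts only the 37 falls exceeded the share of all genes. Other block counts are given by list, without the 3 cystatins. The lists were 26 other hydrolases, 18 membrane proteins, 14 V-ATPase subunits, 12 sorting genes, 20 mTORC1 and TFEB regulators and 26 autophagy genes. With the siRNA 9, 10, 4, 4, 6 and 15 rose with TGF-β (17.6% of all genes). With vehicle 7, 10, 6, 6, 6 and 12 rose (17.4%). For TGF-β in scramble cells 13, 5, 2, 1, 7 and 8 fell (13.0%). Of 26 other lysosomal hydrolases 11 fell with TGF-β in scramble cells (13 with the block), led by the cathepsins Ctsf (log2 -1.10) and Ctso (-1.08), while Ctsc, cathepsin C, rose (0.63). With the siRNA 6 of the 26 rose with TGF-β (9 with the block) and 7 with vehicle, led in both by Pla2g15, a lysosomal phospholipase (0.93 and 1.05).

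Of 18 other lysosomal membrane proteins 9 rose and 2 fell with the siRNA when TGF-β was given, and 6 rose and 2 fell with vehicle. Tpcn1, a cation channel of endosomes and lysosomes, rose by a log2 of 1.86 with TGF-β and 1.51 with vehicle, and Mfsd8, whose human gene is mutated in a lysosomal storage disease, by 1.42 and 1.09. Ostm1, the partner of the chloride transporter Clcn7, fell by a log2 of -0.78 and -0.85. With TGF-β in scramble cells 5 of the 18 fell and 1 rose, the widest called fall being that of Tmem175, a lysosomal potassium channel (-0.71). With the block, 10 of the 18 rose with the siRNA with vehicle. Of 14 other V-ATPase subunits 4 rose with the siRNA at each treatment, with the widest called rise in Atp6v0e (0.92 with TGF-β and 1.08 with vehicle), while with the block 4 rose and 2 fell with TGF-β and 6 rose and 1 fell with vehicle. With TGF-β 3 of the 14 fell and 0 rose in knockdown cells (5 and 2 with the block), and 2 fell and 1 rose in scramble cells (2 and 3 with the block), where the median log2 was 0.0.

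Of 12 genes for mannose 6-phosphate tagging and sorting, by which new hydrolases are carried to the lysosome, 4 rose and 2 fell with the siRNA when TGF-β was given and 6 rose and 3 fell with vehicle. Nagpa, which uncovers the mannose 6-phosphate tag, had the widest called rise (log2 0.93 and 1.14), and M6pr, a receptor for the tag, fell with TGF-β present (-0.32). With TGF-β 3 of the 12 fell and 1 rose in knockdown cells, and 1 fell and 2 rose in scramble cells. Of 20 regulators of mTORC1 and TFEB, 4 rose and 1 fell with the siRNA when TGF-β was given and 5 rose and 2 fell with vehicle, so that the falls were no more frequent than the 11.3% and 11.2% of all genes. The subunits of the Ragulator complex did not move together, since Lamtor2 rose (0.80 and 0.75) and Lamtor3 fell (-0.95 and -1.12). With TGF-β in knockdown cells 2 of the 20 fell and 2 rose, where 6.6% and 9.14% of all genes did, and 6 fell with the block. In scramble cells 5 fell and 1 rose, Mitf, a relative of Tfeb, falling by -1.04 and Rheb, the activator of mTORC1, rising by 0.60.

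Of 26 autophagy genes 11 rose and 2 fell with the siRNA when TGF-β was given (15 and 2 with the block). With vehicle 9 rose and 2 fell (12 and 3 with the block). Atg101, a subunit of the kinase complex that starts autophagosome formation, rose by a log2 of 0.78 and 0.81, while Ulk1, the kinase of that complex, fell by -0.84 and -1.06. With TGF-β 3 of the 26 fell in knockdown cells, or 6 with the block, and 8 in scramble cells, among them Calcoco1 (log2 -0.68 and -1.27). Of 3 cystatins, inhibitors of cathepsins, Cst3 fell with TGF-β in knockdown cells (log2 -0.59).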

How the data were processed

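RNA depleted of ribosomal RNA was sequenced, and the authors quantified each library with Salmon on an mm10 transcript index. The deposited values are estimated counts per transcript, with no normalization, and TPM, which the authors' tool scaled by transcript length and to a fixed sum per library. Here both were summed per gene (115973 of 117135 transcripts matched, 99.54% to 99.6% of reads), and summed counts were rounded. Total counts of 19864545 to 36296333 per library set the precision, and estimated counts split between similar transcripts carry added uncertainty.

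Genes whose counts summed to 10 or more were tested with edgeR 4.0.16 (R 4.3.3): TMM factors, a quasi-likelihood fit of the 4 groups over all 12 libraries, Benjamini-Hochberg adjustment over 18028 genes and a threshold of 0.01. The fit was tested on simulated data. Same-numbered libraries of different groups deviated together (correlation 0.16 to 0.549 in 18 pairs over 13064 genes, against -0.488 to 0.196 in 36 other pairs), so the number was also used as a block; the labels give the numbers only. DESeq2 1.42.0, limma-voom 3.58.1, other scalings, filters, fits of only the groups compared, thinning to the lowest total and leaving out each library were alternatives.

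The members, their roles, the marker and pathway lists and the tests were chosen with earlier results of these data known. Members described by library were those with the widest called change in each comparison and a few fixed by name. Promoter sequences are from RefSeq (GRCm38.p6), gene positions from GENCODE (GRCm38).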

Additional observations from a re-analysis of the deposited data

How the results depend on the processing

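Over the alternatives the median log2 fold change of the lysosome genes stayed between -0.33 and -0.25 for TGF-β in knockdown cells, -0.41 and -0.34 for TGF-β in scramble cells, 0.22 and 0.28 for the siRNA with TGF-β, and 0.18 and 0.27 for the siRNA with vehicle. Leaving out each library in turn, 14 to 19, 16 to 24, 11 to 16 and 13 to 17 of the 40 were called in those comparisons, and 0 for the interaction. Of all genes, 1589 to 2884, 1871 to 3597, 3231 to 4468 and 3325 to 4656 were called in those fits, and 0 to 12 for the interaction. Of the members, 13 to 18 and 14 to 22 fell with TGF-β, and 8 to 13 and 11 to 15 rose with the siRNA. In fits of only the groups compared, 13, 18, 14 and 13 were called, where 1548, 2449, 3319 and 3408 of all genes were. With RLE scaling, or with the most abundant genes left out of the scaling, 8 instead of 11 rose with the siRNA when TGF-β was given. Of all genes, 2060 and 2115 rose in those fits, instead of 2343. With the replicate block 23, 26, 21 and 21 were called, and 0 for the interaction. Of all genes, 4825, 5125, 6058 and 6054 were called with the block, and 118 for the interaction. DESeq2 called 1 gene for the interaction, where edgeR called 0, and the cause was not tested. With an offset for transcript length Cln3 had a log2 of -0.64 for the siRNA with TGF-β (adjusted p = 0.0055), against 0.00 without it, and the cause was not tested. Single calls lost on leaving out a library numbered 32, 33, 22 and 23 over the 12 fits of each comparison, and 1, 3, 7 and 1 were gained. Depth limited Gla, at 0 to 34.7 normalized counts.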
